A study of Mus musculus with 6 samples.

Results

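A set of 41 genes of mitosis was followed on 6 Affymetrix arrays of mouse bone marrow cells in which Rad21 had been targeted. The set was drawn up as a list of gene names, and each gene was read from its brightest probe set among those annotated to that gene alone. Of the 41, 39 had such a probe set, out of 12393 genes on the arrays, and Ccnb1 and Cdca8 had none. Every group began as lineage-depleted marrow of C57/BL6 animals, 6 to 8 weeks of age, that was exposed to a lentivirus for 24 h, selected with 1 µg/mL puromycin, sorted for live cells, seeded at 10000 cells per mL in methylcellulose with cytokines and collected on day 7. The 3 groups carried an empty vector, Rad21 shRNA1 or Rad21 shRNA2, with 2 arrays each. Neither the cytokines nor the sequences of the shRNAs are named in the labels, which do not say whether replicates came from separate cultures or animals. The p-values thus reflect the spread of these 6 arrays alone, and part of it may be technical.

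Mitosis is driven by the kinase Cdk1 bound to cyclins A and B, which sets off spindle assembly and chromosome condensation. Kinetochores, built on the centromere, attach chromosomes to the spindle, and the spindle checkpoint holds the anaphase-promoting complex, a ubiquitin ligase, inactive until all are attached. That ligase, with its activator Cdc20, then destroys cyclin B and securin, which frees separase to cut Rad21, the cohesin subunit that closes the ring around sister chromatids. Transcripts of most of these genes accumulate in the G2 and M phases and are low in cells that have left the cell cycle, so that in marrow cultures they mark dividing progenitors. In bulk RNA, fewer dividing cells and less of a transcript per cell cannot be told apart.

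Many G2 and M phase genes are known to carry a cell cycle homology region with the core TTTGAA, bound by the MuvB complex, and boxes with the core CCAAT, bound by NF-Y. RefSeq promoter windows of GRCm38.p6, from 250 bases before to 50 bases after the annotated start, were at hand for 33 of the 39 measured genes. Searched on both strands, TTTGAA stood in the windows of 24 of these 33 genes (72.7%), against 20.2% of all 27025 genes in the table. CCAAT stood in 24 of 33 (72.7%), against 41.1% of all genes. Both motifs were found for 20 genes (60.6%, against 8.0%), and neither for 5, which were Tacc3, Birc5, Mad2l1, Nuf2 and Pttg1. A motif may occur in a gene through any of its windows, 0 pairs of TTTGAA and CCAAT matches overlapped, and binding was not measured. Of 35 TTTGAA matches in the windows of these genes, 27 lay within 50 bases of the start. A site in overlapping windows of a gene was counted once in each, so distinct sites are fewer. The shares of genes depended on the window. In the 250 bases before the start alone, TTTGAA stood in 12 of 33 genes (36.4%, against 18.3% of all genes), CCAAT in 23 (69.7%, against 37.5%) and both in 10 (30.3%, against 6.5%). The sequences below run from 220 bases before to 30 bases after the start, 5′ to 3′ on the gene's strand, with both motifs in capitals (TTCAAA and ATTGG are the reverse complements). They show the 2 genes in the table with the smallest p for both shRNAs against empty vector, Ccnb2 (chr9:70421525-70421774, minus strand) and Cdk1 (chr10:69352883-69353132, minus strand), and the 2 with the largest, Bub3 (chr7:131560150-131560399, plus strand) and Cdca5 (chr19:6084877-6085126, plus strand).
Ccnb2: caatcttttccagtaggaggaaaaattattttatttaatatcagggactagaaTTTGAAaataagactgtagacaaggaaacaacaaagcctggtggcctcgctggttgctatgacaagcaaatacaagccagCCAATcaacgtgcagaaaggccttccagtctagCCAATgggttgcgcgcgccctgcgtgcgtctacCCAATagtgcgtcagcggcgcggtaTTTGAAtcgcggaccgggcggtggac
Cdk1: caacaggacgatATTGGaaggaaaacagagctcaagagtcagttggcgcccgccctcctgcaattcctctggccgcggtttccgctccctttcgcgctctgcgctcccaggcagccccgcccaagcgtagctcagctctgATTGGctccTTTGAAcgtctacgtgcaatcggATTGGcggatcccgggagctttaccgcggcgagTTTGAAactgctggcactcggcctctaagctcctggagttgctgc
Bub3: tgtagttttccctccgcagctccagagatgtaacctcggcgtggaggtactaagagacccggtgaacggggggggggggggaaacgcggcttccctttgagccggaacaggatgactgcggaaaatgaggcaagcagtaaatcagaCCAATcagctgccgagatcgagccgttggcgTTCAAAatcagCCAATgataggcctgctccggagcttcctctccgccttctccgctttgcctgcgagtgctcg
Cdca5: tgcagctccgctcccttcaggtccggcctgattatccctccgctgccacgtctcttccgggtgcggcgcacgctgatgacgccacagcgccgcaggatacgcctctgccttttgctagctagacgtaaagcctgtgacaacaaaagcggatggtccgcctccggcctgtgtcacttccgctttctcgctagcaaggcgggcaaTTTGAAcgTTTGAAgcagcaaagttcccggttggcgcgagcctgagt
Ccnb2 had 3 CCAAT boxes, at positions -87, -54 and -21, and TTTGAA at positions -167 and 5, counted from 1 at the first base of the gene. Bub3 had 2 windows in the table, of which the first is shown. These 4 are single examples, and a relation of the motifs to the differences was not tested. Mad2l1, which rose, held neither motif, and Aurkb and Kif20a were not in the table.

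Empty-vector replicate 1 stood apart before any comparison. On this array the Gapdh control probe set at the 3′ end lay 2.42 log2 units above the one at the 5′ end, against -0.078 to 0.017 on the other 5 arrays, and for Actb the gap was 2.55 against 0.22 to 0.33. Erythroid markers (7 of 9 measured) averaged 8.99 on this array and 7.22 on the other control, with 6.38 to 6.97 on the shRNA arrays. Macrophage markers (4 of 4 measured) averaged 9.90 and 11.04 on the empty-vector arrays, 9.85 and 10.38 with shRNA1 and 8.86 and 8.91 with shRNA2. Myeloid markers, 8 of 8 measured, averaged 9.25 and 9.67 with empty vector and 10.78 to 11.19 with the shRNAs. Most of that gap came from Mpo (7.13 and 6.11 against 10.32 to 12.86) and Elane (5.76 and 5.78 against 9.81 to 11.68), granule genes of early neutrophil precursors, and the median difference over the 8 was 0.60. Mast cell markers (4 of 4) averaged 11.84 and 12.49 with empty vector and 11.09 to 11.64 with the shRNAs, and megakaryocyte markers (4 of 4) 11.24 and 11.25 against 10.02 to 10.98. Progenitor markers (4 of 4) averaged 8.82 to 9.26 with empty vector and 8.73 to 9.46 with the shRNAs, but single markers moved in opposite directions. Kit read 10.996 and 11.099 with empty vector and 8.93 to 9.82 with the shRNAs. Cd34 read 9.53 and 9.095, then 9.78 and 9.49 with shRNA1 and 10.72 and 10.62 with shRNA2. Myb read 10.29 and 9.06, then 10.34 and 9.64, then 10.95 and 11.18 in the same order. Flt3 stayed between 5.95 and 6.21 on all arrays. Stromal, B, T and NK markers averaged under 6 on every array. Of the stromal ones, Pdgfrb read 5.34 and 3.815 with empty vector and 5.48 to 7.48 with the shRNAs, while Col1a1 and Col1a2 stayed under 6. The part of RNA quality and of these cell types in the results was not tested. Rad21 itself read 11.14 and 10.49 with empty vector, 9.63 and 9.14 with shRNA1 and 9.50 and 9.11 with shRNA2, so that every shRNA array was below both controls. Its difference for both shRNAs was -1.47 ± 0.26 (limma adjusted p = 0.0558; 0.0166 with the replicate block).

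The first comparison asked how the mitosis genes differed between the 4 shRNA arrays and the 2 empty-vector arrays. Values are log2 intensities, differences are log2 differences ± the standard error (SE) of a single limma fit of the 3 groups, with n = 4 and 2 arrays, and p-values were adjusted across the 12393 genes by the Benjamini-Hochberg method, with calls made under 0.05. The genes that rose were Aurkb, Ccnb2, Kif20a, Cdk1, Bub1b and Mad2l1, which makes 6 of 39, against 0.734% of all genes called higher, and none fell, against 1.4%. With the replicate block 5 rose, Mad2l1 being lost, and 0.726% and 1.6% of all genes were called higher and lower. Leaving out an shRNA array ended most calls for the 39 genes as for all genes. Aurkb, Ccnb2 and Kif20a still passed without shRNA1 replicate 2 (0.266% of all genes higher, 0.484% lower). None passed without shRNA1 replicate 1 (0.0726% and 0.0646%), shRNA2 replicate 1 (0.0161% and 0.00807%) or shRNA2 replicate 2 (0.0726% and 0.161%), or with array weights (0.137% and 0.274%), and the adjusted p of Kif20a reached at most 0.0792 over all settings. They belong to the mitotic switch, the chromosomal passenger complex, the spindle checkpoint and the central spindle. The median difference over the 39 genes was 0.74, beside -0.023 over all genes, with a range from -0.28 to 1.83. Positive differences were found for 37 of the 39, against 46.4% of all genes tested. An unadjusted p under 0.05 was reached by 20 of 39, against 16.7% of all genes.

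The 2 control arrays disagreed about these genes. Empty-vector replicate 1 was above replicate 2 for 36 of 39 genes, against 58.0% of all genes, with a median gap of 0.97 log2 units and a range from -0.33 to 2.79, and by over 1 log2 unit for 18 of 39, against 4.13%. Replicate 2 was the lowest of the 6 arrays for 36 of the 39 genes, and replicate 1 for the other 3, Aurkb, Anln and Kif23. The mean of the shRNA arrays exceeded empty-vector replicate 2 for 39 of 39 genes (53.1% of all genes did) and replicate 1 for 22 of 39 (42.4% of all genes did). The genes fell into 3 arrangements. All 4 shRNA arrays lay above both controls for 15 genes (11.5% of all genes), between the controls with replicate 1 on top for 12 (8.93% of all genes), and the remaining 12 were mixed. None lay between the controls with replicate 2 on top (6.3% of all genes). No member had all shRNA arrays below both controls, as 13.6% of all genes had. The 6 genes that rose were all of the first kind and had control gaps from -0.16 to 0.30. The other 33 genes had a median gap of 1.10. The call depends on the spread within groups, which includes the control gap. Small gaps among the called genes were thus favoured by the call and are no separate result. Of the 39 genes, 31 were called higher and none lower without empty-vector replicate 1 (1.97% and 3.27% of all genes), with a median difference of 1.27. Without replicate 2, which leaves the array with the 3′ gap as the only control, 11 were called higher and 5 lower (13.1% and 12.1% of all genes), with a median of 0.23. On their brightest probe sets Cdca5 and Kif22 had opposite signs, at 1.08 and 1.00 without replicate 1 and -0.71 and -0.55 without replicate 2. A dimmer probe set of Cdca5 read 7.82 and 7.04 with empty vector and 7.59 to 8.21 with the shRNAs. Those of Kif22 read 7.56 and 6.38 against 7.27 to 7.92, and 8.45 and 6.81 against 7.56 to 8.19.

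**Figure D1:**
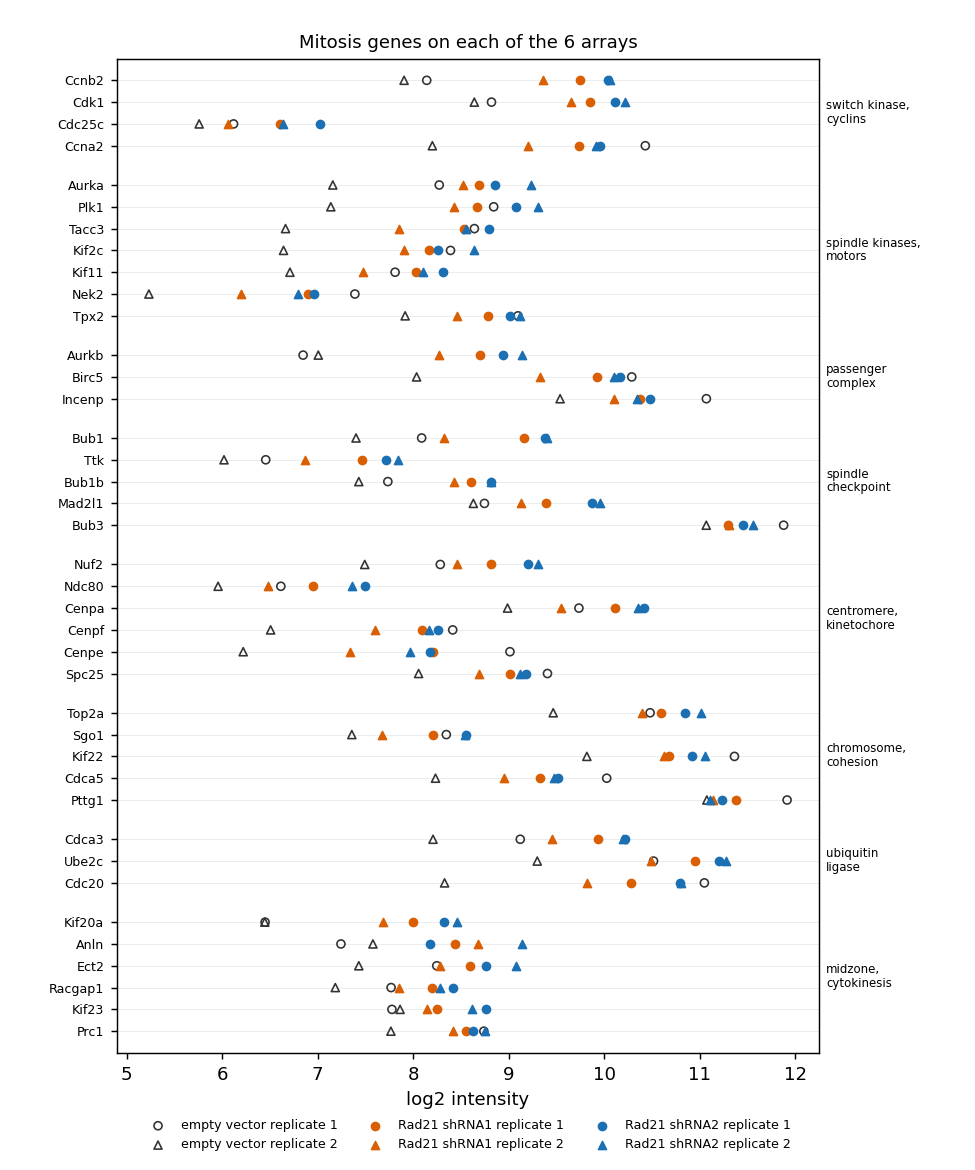
Log2 intensity (horizontal axis) of the 39 measured mitosis genes, grouped by role, on each of the 6 arrays. Open symbols are empty-vector arrays and filled symbols shRNA arrays, with circles for replicate 1 and triangles for replicate 2. Empty-vector replicate 2 is the lowest array for 36 genes, while replicate 1 lies among or above the shRNA arrays for many of them.

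Among the switch kinase and its cyclins, 2 of 4 measured genes rose, against 0.734% of all genes. Ccnb2, a B-type cyclin that activates Cdk1, read 8.14 and 7.90 with empty vector, 9.75 and 9.35 with shRNA1 and 10.03 and 10.06 with shRNA2. All shRNA arrays exceeded both controls, and the shRNA2 pair was the highest. The difference was 1.78 ± 0.17 (limma adjusted p = 0.0132), or 1.89 without empty-vector replicate 1 and 1.66 without replicate 2. Cdk1, the kinase that triggers mitotic entry, read 8.82 and 8.64, then 9.85 and 9.65, then 10.11 and 10.21 in the same order of groups. The groups did not overlap, and the difference was 1.23 ± 0.14 (adjusted p = 0.0199). Cdc25c, the phosphatase that activates Cdk1, differed by 0.64 ± 0.23 (adjusted p = 0.242), with 1 shRNA1 array (6.06) below an empty-vector array (6.12). Ccna2, the A-type cyclin of S and G2 phase, differed by 0.39 ± 0.59 (adjusted p = 0.809). Its controls read 10.43 and 8.20, and all shRNA arrays, from 9.21 to 9.95, lay between them.

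The chromosomal passenger complex corrects faulty attachments of chromosomes and later marks the site of cytokinesis. Its kinase, Aurkb, had the largest difference of all 39 genes. It read 6.85 and 7.01 with empty vector, 8.70 and 8.27 with shRNA1 and 8.94 and 9.13 with shRNA2. The controls were close to each other and more than 1 log2 unit below every shRNA array, a difference of 1.83 ± 0.17 (adjusted p = 0.0132; 1.75 and 1.91 without empty-vector replicates 1 and 2). The other subunits measured did not pass. Birc5, or survivin, differed by 0.72 ± 0.60 (adjusted p = 0.620) and the scaffold Incenp by 0.02 ± 0.41 (0.988), both with all shRNA arrays between the 2 controls.

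In the spindle checkpoint 2 of 5 genes rose, against 0.734% of all genes. Bub1b, or BubR1, part of the complex that inhibits Cdc20, read 7.73 and 7.43 with empty vector, 8.61 and 8.42 with shRNA1 and 8.81 on both shRNA2 arrays. Its groups did not overlap, and it differed by 1.08 ± 0.15 (adjusted p = 0.0329). Mad2l1, or Mad2, another part of that complex, read 8.74 and 8.63, then 9.39 and 9.13, then 9.87 and 9.96. It differed by 0.90 ± 0.14 (adjusted p = 0.0446), a call lost with the replicate block (0.0544). Ttk, or Mps1, the kinase that starts checkpoint signalling, read 6.46 and 6.02, then 7.46 and 6.87, then 7.71 and 7.84. Every shRNA array was above both controls, but the difference of 1.23 ± 0.22 missed the threshold (adjusted p = 0.0593). Bub1, a kinase that recruits checkpoint proteins to kinetochores, differed by 1.32 ± 0.30 (adjusted p = 0.102), also without overlap. Bub3, their binding partner, differed by -0.07 ± 0.24 (adjusted p = 0.923), and its shRNA arrays lay between the controls.

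The midzone and cytokinesis genes build the central spindle and the contractile ring, and 1 of 6 rose, against 0.734% of all genes. Kif20a, a kinesin of the central spindle, had nearly identical controls, 6.45 on both arrays. It read 8.00 and 7.68 with shRNA1 and 8.32 and 8.45 with shRNA2, a difference of 1.67 ± 0.15 (adjusted p = 0.0121) that was 1.67 and 1.66 without empty-vector replicates 1 and 2. Kif23, a kinesin of the centralspindlin complex, read 7.78 and 7.86 with empty vector, 8.25 and 8.15 with shRNA1 and 8.76 and 8.62 with shRNA2. Its difference was smaller, at 0.62 ± 0.13, and missed the threshold (adjusted p = 0.0855) although no groups overlapped. Its partner Racgap1 differed by 0.71 ± 0.21, Ect2 by 0.84 ± 0.26 and the actin-binding ring protein Anln by 1.19 ± 0.29 (adjusted p = 0.184, 0.199 and 0.118). All 3 had every shRNA array above both controls, as 11.5% of all genes had. Prc1, which bundles midzone microtubules, differed by 0.34 ± 0.28 (0.616).

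**Figure D2:**
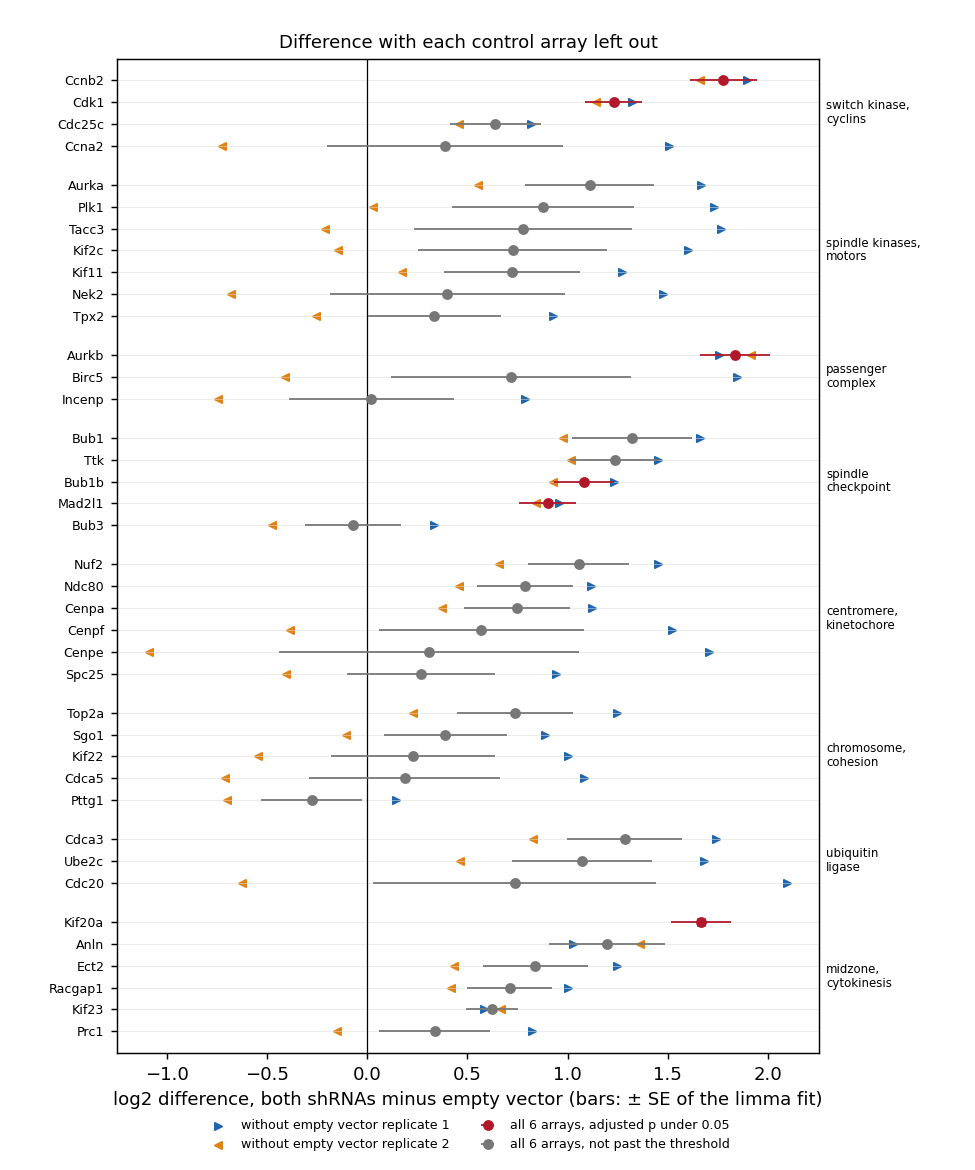
Log2 difference of both shRNAs minus empty vector (horizontal axis) for each of the 39 genes, as circles with bars of ± SE, red where the adjusted p is under 0.05. Triangles give the difference with 1 empty-vector array left out, all on the brightest probe set of each gene. The 6 genes that rose have triangles close to their circle, a trait that the call itself favours. Those of Cdc20 run from -0.62 to 2.09.

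None of 7 spindle kinases and motors passed, with 1 at an unadjusted p under 0.05, against 16.7% of all genes. This was Aurka, the kinase of centrosomes and spindle poles, which read 8.27 and 7.16 with empty vector, 8.69 and 8.52 with shRNA1 and 8.86 and 9.23 with shRNA2. The groups did not overlap, yet the controls were 1.11 apart, and the difference was 1.11 ± 0.32 (adjusted p = 0.174). Plk1, which acts from mitotic entry to cytokinesis, differed by 0.88 ± 0.45, the Aurka partner Tacc3 by 0.78 ± 0.54 and the microtubule depolymerase Kif2c by 0.73 ± 0.47. Kif11, or Eg5, which pushes spindle poles apart, differed by 0.72 ± 0.34. The centrosomal kinase Nek2 differed by 0.40 ± 0.59 and Tpx2, the activator of Aurka, by 0.34 ± 0.33. Adjusted p-values of these 6 ranged from 0.356 to 0.803.

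Centromere and kinetochore genes had no call among 6, and 3 had an unadjusted p under 0.05, against 16.7% of all genes. Nuf2, a subunit of the Ndc80 complex that binds microtubules, read 8.28 and 7.49 with empty vector, 8.81 and 8.46 with shRNA1 and 9.20 and 9.30 with shRNA2. It was higher on every shRNA array, by 1.05 ± 0.25 (adjusted p = 0.114). Its partners Ndc80 and Spc25 differed by 0.79 ± 0.24 and 0.27 ± 0.37 (0.190 and 0.786). Cenpa, the histone H3 variant of centromeres, differed by 0.75 ± 0.27 (0.244). Cenpf and the kinesin Cenpe differed by 0.57 ± 0.51 and 0.31 ± 0.75 (0.645 and 0.895). Cenpe had the widest control gap of the set, 9.01 against 6.22.

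Among 5 genes of chromosome structure and of sister chromatid cohesion and separation none passed. Top2a, which untangles sister DNA, read 10.48 and 9.46 with empty vector, 10.59 and 10.40 with shRNA1 and 10.85 and 11.01 with shRNA2. Here 1 shRNA1 array lay below empty-vector replicate 1, and the difference was 0.74 ± 0.29 (adjusted p = 0.284). Of these, 3 encode regulators of cohesin or of its cleavage. Cdca5, or sororin, which stabilises cohesin on chromatids, differed by 0.19 ± 0.48 (0.901), and Sgo1, or shugoshin, which protects it at centromeres, by 0.39 ± 0.31 (0.600). Pttg1, or securin, the inhibitor of the separase that cuts Rad21, differed by -0.28 ± 0.25 (0.652). Kif22, a kinesin that binds chromosome arms, differed by 0.23 ± 0.41 (0.846). For Cdca5, Pttg1 and Kif22 all shRNA arrays lay between the controls, and for Sgo1 they overlapped replicate 1.

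The ubiquitin ligase group had no call among 3. Cdca3, a trigger of mitotic entry that acts in the SCF ligase, read 9.12 and 8.21 with empty vector, 9.93 and 9.45 with shRNA1 and 10.22 and 10.20 with shRNA2. It did not overlap between groups and differed by 1.29 ± 0.29 (adjusted p = 0.100). Ube2c, the ubiquitin-conjugating enzyme of the anaphase-promoting complex, differed by 1.07 ± 0.35 (0.213). Cdc20, its activator, differed by 0.74 ± 0.71 (0.669). On its brightest probe set the controls, at 11.05 and 8.33, enclosed all 4 shRNA arrays, which ran from 9.82 to 10.80. On a dimmer probe set the controls read 9.18 and 8.41, below all shRNA arrays (9.36 to 10.18), a difference of 1.03. The dimmest read 7.74 and 6.37 against 7.14 to 8.14, a difference of 0.60.

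With each shRNA taken alone, against the same 2 empty-vector arrays, n was 2 and 2. For shRNA2, 8 of 39 genes rose (0.880% of all genes were called higher) and none fell (1.95%). These were Aurkb (2.11 ± 0.20), Ccnb2 (2.02 ± 0.19), Kif20a (1.94 ± 0.17), Ttk (1.54 ± 0.26), Cdk1 (1.44 ± 0.16), Bub1b (1.23 ± 0.17), Mad2l1 (1.23 ± 0.16) and Kif23 (0.87 ± 0.15), with limma adjusted p from 0.0107 to 0.0456. With the replicate block, which called 1.15% of all genes higher and 2.47% lower, Kif23 was lost (adjusted p = 0.0583) and Bub1 (0.0408), Cdca3 (0.0445) and Ndc80 (0.0480) passed. For shRNA1 none of 39 passed by limma in either direction (0.0968% and 0.137% of all genes did), with 12 at an unadjusted p under 0.05, against 9.30% of all genes. The differences with the smallest p were those of Kif20a (1.39 ± 0.17, adjusted p = 0.0572), Ccnb2 (1.53 ± 0.19, 0.0588) and Aurkb (1.56 ± 0.20, 0.0610). Without empty-vector replicate 1, 4 genes were called higher for shRNA1 (0.379% of all genes, and 0.621% lower) and 35 for shRNA2 (3.48%, and 5.41% lower), with none of the 39 lower. Without replicate 2, 5 were called higher and 7 lower for shRNA1 (11.1% and 9.34% of all genes), and 12 higher and 2 lower for shRNA2 (12.5% and 11.2%). On their brightest probe sets Cdc20 for shRNA1 (1.72 and -0.9962) and Incenp for shRNA2 (0.87 and -0.66) had opposite signs in these settings. Dimmer probe sets of Cdc20 read 9.18 and 8.41 with empty vector against 9.61 and 9.36 with shRNA1, and 7.74 and 6.37 against 7.52 and 7.14. Those of Incenp read 8.81 and 7.87 with empty vector against 8.95 and 8.87 with shRNA2, and 5.57 and 5.68 against 6.51 and 6.01. With array weights 4 rose for shRNA2 (0.323% of all genes higher, 0.968% lower). For shRNA2, 3 passed when shRNA1 replicate 1 or shRNA1 replicate 2 was left out (0.274% and 0.694% of all genes in both settings). None passed without shRNA2 replicate 1 (0.00807% in each direction) or shRNA2 replicate 2 (0.0%). The comparisons of both shRNAs share the control arrays. The median difference over the 39 genes was 0.50 for shRNA1 and 0.97 for shRNA2.

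The direct comparison of the shRNAs does not involve the controls except through the shared estimate of spread. The mitosis genes were lower with shRNA1 than with shRNA2 for 38 of 39 genes, the exception being Pttg1 at 0.09 ± 0.29, and the median difference was -0.46, beside -0.021 over all genes. Both shRNA2 arrays lay above both shRNA1 arrays for 34 of 39 genes, which was so for 23.9% of all genes, and below both for none (17.7%). Even so no gene passed by limma, as none did among all 12393 (0.0% called in either direction), and 7 of 39 had an unadjusted p under 0.05, against 4.89% of all genes. That count was 17 with array weights, and it also changed with an array left out. Shares of all genes in those settings are not given here, so the changes cannot be called particular to these genes. The median difference stayed at -0.46 without either empty-vector array, as these enter here only through the spread. With an shRNA array left out it ranged from -0.69 to -0.275. No member was called in any setting, while over all genes 0.355% were called higher and none lower with an empty-vector array left out, and 0.742% higher and 0.0484% lower with array weights. The smallest was that of Mad2l1, at -0.65 ± 0.16 (unadjusted p = 0.00783, adjusted p = 0.645; 95% confidence interval -1.05 to -0.25). For Cdc20, with the largest difference at -0.74 ± 0.81, the interval ran from -2.75 to 1.26.

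**Figure D3:**
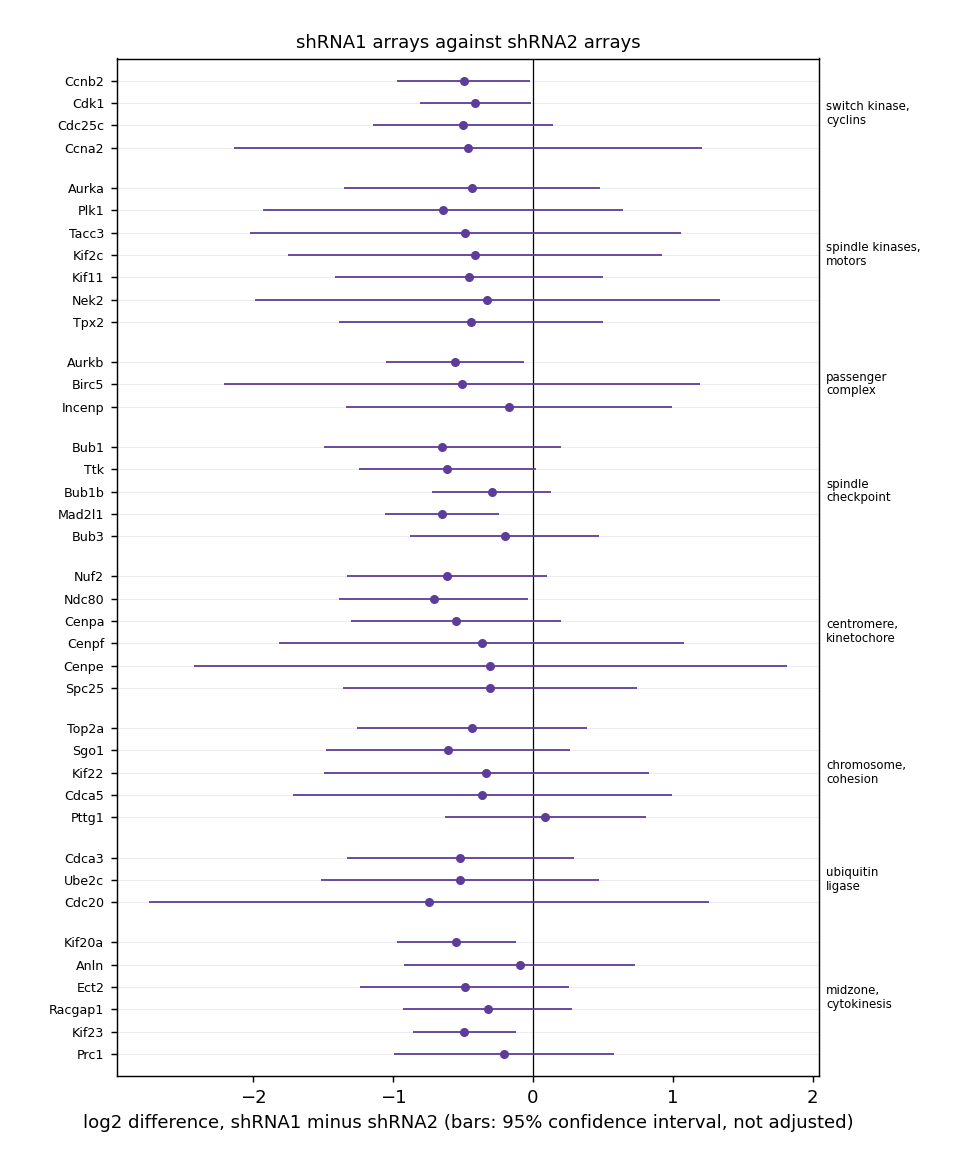
Log2 difference of shRNA1 minus shRNA2 (horizontal axis) for the 39 genes, with unadjusted 95% confidence intervals of the limma fit. Points lie left of 0 for 38 genes, most of them near the median of -0.46, and the intervals of 7 genes exclude 0.

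The shRNA1 arrays also differed from each other. Replicate 1 was above replicate 2 for 37 of 39 genes, with a median of 0.36 (40.5% of all genes), while the shRNA2 arrays were split, with 19 of 39 genes higher on replicate 1 and a median of -0.01 (42.5% of all genes). The median SD within a group was 0.69 with empty vector, 0.25 with shRNA1 and 0.089 with shRNA2. The set as a whole thus varied in level between replicates of the same group, most with empty vector and least with shRNA2.

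Several genes were measured more than once. Of the 39 genes, 20 had 2 or more probe sets, and for 12 of these all probe sets had the same sign of difference for both shRNAs. Over all 71 probe sets 60 were positive. Aurkb differed by 1.83 and 1.66 on its probe sets and Bub1 by 1.32 and 1.02. Ccna2 differed by 0.39 on the brighter and by 1.15 on the dimmer one, with control gaps of 2.23 and 1.23. Kif23 ranged from -0.32 to 1.55 over 3 probe sets, with control gaps from -1.64 to 0.60, and Pttg1 from -0.95 to 0.28, with gaps from -0.53 to 1.39. The negative probe set of Kif23 was dim, at 3.51 to 4.32 over all arrays. The one at 1.55 read 4.28 and 5.92 with empty vector. So the control gap differed between probe sets of the same gene by over 1.5 log2 units in places. These 3 genes were picked for that spread after their values were seen. Of the chosen probe sets, 8 had names ending in x_at or s_at, which Affymetrix gives to sets whose probes can match other transcripts. That of Aurkb was among them, as an x_at set, and its other probe set was an s_at set. Aurkb thus had no probe set of another type to compare with.

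**Figure D4:**
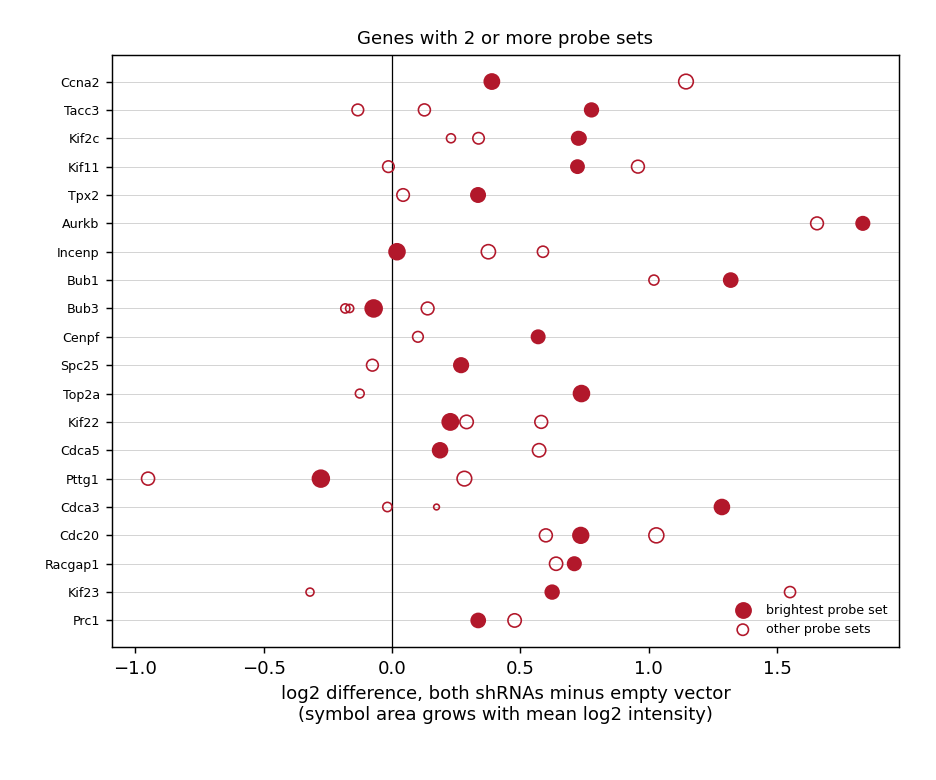
Log2 difference of both shRNAs minus empty vector (horizontal axis) for every probe set of the 20 genes with 2 or more. Filled circles are the brightest probe set, open circles the others, and the area grows with mean log2 intensity. Aurkb and Bub1 keep their differences above 1 on each probe set, whereas Pttg1 and Kif23 have probe sets on both sides of 0. The negative probe set of Kif23 is dim.

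A second list held other genes of mitosis, such as the remaining kinetochore, condensin, centrosome and anaphase-promoting complex genes, with 95 measured. For both shRNAs 3 of 95 rose, against 0.734% of all genes, none fell, against 1.4%, and the median difference was 0.40. They were Nusap1, a spindle microtubule protein (8.06 and 8.08 with empty vector, 8.73 to 9.34 with the shRNAs, 1.03 ± 0.15, adjusted p = 0.0397), Cep55, which recruits the abscission machinery (1.65 ± 0.25, 0.0412), and Dlgap5, or HURP, a spindle protein (0.93 ± 0.15, 0.0463). Smc2, a condensin core subunit, differed by 1.01 ± 0.17 (0.0552). With the replicate block, which called 0.726% of all genes higher and 1.6% lower, Cep55 (0.0507) and Dlgap5 (0.0565) missed the threshold. Kif18a, a kinesin of chromosome alignment (1.46, 0.0330), then rose, and Plk2 (-1.49, 0.0425) and Plk3 (-1.65, 0.0127), polo-like kinases best known from stress responses, fell. Of 41 DNA replication genes, 2 rose and none fell (0.734% and 1.4% of all genes), with a median of 0.41. They were Tk1, the thymidine kinase of S phase (1.77 ± 0.27, adjusted p = 0.0405), and Pole2, a subunit of DNA polymerase epsilon (0.92 ± 0.14, 0.0443, and 0.0567 with the block).

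The replication genes shared the arrangement of the arrays. Empty-vector replicate 1 was above replicate 2 for 35 of 41, against 58.0% of all genes, with a median gap of 0.99. For 40 of 41 shRNA1 replicate 1 was above replicate 2, against 40.5% of all genes. Their shRNA mean exceeded empty-vector replicate 1 for 20 of 41 genes and replicate 2 for 39 of 41, against 42.4% and 53.1% of all genes. For the list of other mitosis genes the control gap had a median of 0.30, beside 0.085 over all genes. Replicate 1 was higher for 65 of these 95, against 58.0% of all genes.

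**Figure D5:**
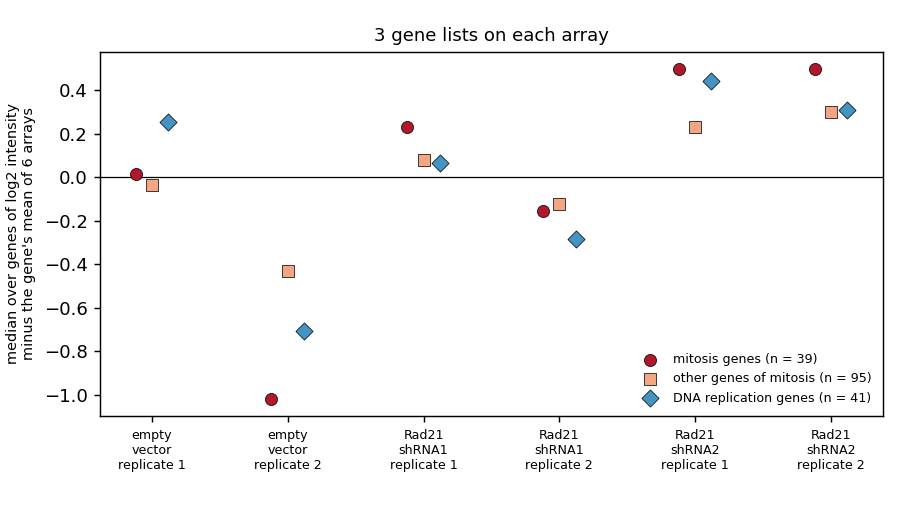
Median over genes of the log2 intensity minus each gene's mean over the 6 arrays (vertical axis) for the 39 mitosis genes, 95 other genes of mitosis and 41 DNA replication genes on each array. All 3 lists are lowest on empty-vector replicate 2, where they stand at -1.02, -0.43 and -0.71, and empty-vector replicate 1 lies near the middle at 0.015, -0.038 and 0.25.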

How the data were processed

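The deposited table gives 1 intensity for each of 22690 probe sets on 6 arrays, and the submitters' processing notes name RMA as the authors' tool. That method corrects background, quantile-normalizes arrays and summarises probes, which can compress differences of dim probe sets and hide changes in total RNA per cell. The values, from 4.96 to 20614.6 with array medians from 100.2 to 104.9, were linear, and log2 was taken with no pseudocount and no filter on dim genes. The sources used here give no version of it and no genome build. Of the probe sets, 20380 carried 1 gene in the platform annotation and were no Affymetrix controls, which gave 12393 genes (12369 with an Entrez number in the RefSeq table of GRCm38.p6).

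All groups were fitted together with limma (version 3.58.1, R 4.3.3; lmFit and eBayes, 3 residual and 2.91 prior degrees of freedom), tested on simulated data, with two-sided tests. Same-numbered arrays deviated together in all 3 pairs of groups (correlations over genes of 0.196, 0.144 and 0.584), so the fit with the replicate number as a block is given beside results it changes. Alternatives were each array left out, mean of all probe sets, the dimmer 50% of genes left out, quantile normalization, median centring, an intensity trend, robust eBayes and array weights. An alternative that used x_at and s_at probe sets last was added after seeing the data. Members, lists and motifs were chosen with earlier results of these data known. Every measured member is named, and values on all arrays are given for members past the threshold in any comparison and for the member with the smallest p of each role. Of the other mitosis list the 4 genes with the smallest p are named and of the replication list 2. Additional values of other genes were chosen after they were seen. Plots were made with Python 3.11.15 and matplotlib 3.10.9. The number of arrays limits the precision.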

Additional observations from a re-analysis of the deposited data

How the results depend on the processing

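The count of 6 mitosis genes higher with both shRNAs was 5 or 6 with the replicate block, mean of all probe sets, the dimmer 50% of genes left out, quantile normalization, median centring, an intensity trend, robust eBayes and x_at and s_at probe sets used last, and 0 with array weights. Some of these settings could hardly change the values of the 6 genes. All but Aurkb had a single probe set, not of the x_at or s_at type, and Aurkb had only such types. Using those types last thus kept the same probe set for all 6, and the mean could alter only Aurkb. Quantile normalization repeated a step that RMA includes. Array weights gave 0 of the other mitosis and 0 of the DNA replication genes, and 4 instead of 8 for shRNA2. Over all 12393 genes it called 17 higher and 34 lower for both shRNAs and 40 higher and 120 lower for shRNA2. The weights were equal within each group, at 0.333 for empty vector, 1.556 for shRNA1 and 1.932 for shRNA2. With 2 arrays per group, both lie equally far from their group mean, so weights within a group had to be equal. The weights therefore could not single out replicate 1 and say nothing about that array alone. Leaving out 1 array gave 0 to 31 higher and 0 to 5 lower for both shRNAs, 0 to 5 higher and 0 to 7 lower for shRNA1, and 0 to 35 higher and 0 to 2 lower for shRNA2. For both shRNAs none of the 6 was called without shRNA1 replicate 1, shRNA2 replicate 1 or shRNA2 replicate 2, and 3 (Aurkb, Ccnb2 and Kif20a) without shRNA1 replicate 2. For shRNA2, 3 were called with shRNA1 replicate 1 or 2 left out and 0 with shRNA2 replicate 1 or 2 left out. Where a single array is left in a group, it is assumed to vary like the others. Without empty-vector replicate 1 the counts were 31, 4 and 35 higher. Without replicate 2 they were 11, 5 and 12 higher and 5, 7 and 2 lower.

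For the other mitosis genes, 3 higher became 1 with the dimmer 50% left out or an intensity trend. The block gave 2 higher and 2 lower (0.726% and 1.6% of all genes). Leaving out 1 array gave 0 to 18 higher and 0 to 8 lower. For DNA replication genes, 2 higher became 1 with the block, the dimmer 50% left out, quantile normalization or an intensity trend. Leaving out 1 array gave 0 to 14 higher and 0 to 8 lower. For both lists the largest of these counts came with an empty-vector array left out. A single control array then remained, and the shares of all genes called, given above, rose as well. The ranges alone thus do not set these lists apart from all genes. Rad21 passed with the block (-1.47) and, with 1 array left out, ranged from -1.80 to -1.15.

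With 1 array left out, the difference for both shRNAs took either sign for Ccna2 (-0.73 to 1.503), Nek2 (-0.68 to 1.48), Tpx2 (-0.26 to 0.93), Tacc3 (-0.21 to 1.77), Kif2c (-0.15 to 1.60), Birc5 (-0.41 to 1.84), Incenp (-0.75 to 0.79), Bub3 (-0.48 to 0.33), Cenpe (-1.09 to 1.70), Cenpf (-0.38 to 1.52), Spc25 (-0.41 to 0.94), Kif22 (-0.55 to 1.00), Cdca5 (-0.71 to 1.08), Sgo1 (-0.10 to 0.88), Pttg1 (-0.70 to 0.14), Cdc20 (-0.62 to 2.10) and Prc1 (-0.15 to 0.82). The same held for shRNA1 for Ccna2 (-0.96 to 1.27), Kif22 (-0.71 to 0.83), Cdca5 (-0.89 to 0.90) and Cdc20 (-0.9962 to 1.72) and for shRNA2 for Incenp (-0.66 to 0.87). In each the lowest value came without empty-vector replicate 2 and the highest without replicate 1. Bub3 (0.14) and Pttg1 (0.28) were also positive with x_at and s_at probe sets used last. The cause of these changes was not tested, and no gene that passed with all arrays changed sign. The call favours genes whose controls lie close together, so this is no separate evidence of stability. These sign changes were read on the brightest probe set of each gene. For Cdca5, Kif22, Cdc20 and Incenp, not all dimmer probe sets had the shRNA arrays between the controls.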
